A study of Mus musculus with 8 samples.

Results

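The cell cycle and DNA replication genes of mouse skin were described as a set of 37 genes, 20 of mitosis and 17 of S phase, out of 55418 genes with a deposited value. Members were chosen by gene symbol for their known function. Total RNA of skin had been sequenced from wildtype mice and from mice called hairloss, which carry a spontaneous mutation, at postnatal days 0, 16, 19 and 28. This gave 8 libraries, 1 for each genotype and day. Which gene is mutated, the strain of the mice and the number of animals behind a library were not given in the sources used here. Expression is given as FPKM, a fragment count corrected for the length of the transcript and the size of the library, which allows levels to be compared between genes. The files name no unit, and FPKM was inferred. No genotype was replicated within a day, so each single-day difference compares 2 libraries and cannot be set against a replicate error. All 37 members reached 1 FPKM in at least 1 library, and none was listed at 0 in any library.

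A dividing cell first copies its DNA and then separates the copies. Before S phase the origin licensing factors Cdc6 and Cdt1 load the MCM helicase, a ring of Mcm2 to Mcm7. In S phase Cdc45 and the GINS complex switch the helicase on, while the clamp Pcna holds the polymerases on DNA. In mitosis the kinase Cdk1 with cyclins B and A drives entry, Aurora and Polo kinases build the spindle, and the checkpoint proteins Bub1 and Bub1b hold division until chromosomes are attached. In skin, dividing cells lie mainly in the basal layer of the epidermis and in the hair matrix at the base of growing follicles, whose daughters make the hair shaft. The hair cycle moves from growth through regression to rest in the third week after birth and back to growth in the fourth.

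The promoters of these genes carry short sequences known from cell cycle control. The E2F site is bound by E2F factors at genes of S phase, and the cell cycle homology region (CHR), often near a CCAAT box, is bound by the DREAM and MuvB complexes at genes of mitosis. RefSeq promoters on build GRCm38.p6 were matched for 31 members, giving 33 promoters of 300 bases each, from 250 bases before to 50 bases after the start of transcription. Both strands were searched, and matches may overlap. The CHR letters TTTGAA were present in 12 of 17 promoters of mitotic genes, in 2 of 16 of S phase genes and in 17.9% of all 32851 promoters of the table. E2F-like letters (TTTCGCG, its variant TTTGGCG, the variant TTTCCCG and the variant TTTGCCG) were present in 3 of 17 and 7 of 16, against 6.70% of all. CCAAT was present in 15 of 17 and 11 of 16, against 37.4% of all. TTTAAA, also counted, was present in 7 of 17 and 4 of 16, against 13.2% of all. Its share among members was thus also above that of all promoters, so it is no neutral background for the CHR letters. A match is a description of the letters and not evidence of a bound site. The 150 bases before the start are shown for 6 members, with CHR and E2F-like letters on either strand in capitals. They are mitotic genes (Mki67, Cdk1, Cdc20) and helicase genes (Mcm2, Mcm5, Mcm6) that have such letters in this stretch. Some other promoters carried their match elsewhere in the 300 bases. Ccnb2, Plk1 and Cenpf did so for the CHR and Mcm3 for E2F-like letters.
Mki67 (chr7:135716380-135716529, minus strand): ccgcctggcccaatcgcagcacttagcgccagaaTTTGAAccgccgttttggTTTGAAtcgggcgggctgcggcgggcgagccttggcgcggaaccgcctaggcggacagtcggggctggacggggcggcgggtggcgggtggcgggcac
Cdk1 (chr10:69352913-69353062, minus strand): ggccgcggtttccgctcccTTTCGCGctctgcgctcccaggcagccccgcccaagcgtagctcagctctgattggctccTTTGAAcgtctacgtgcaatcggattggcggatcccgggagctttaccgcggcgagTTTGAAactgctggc
Cdc20 (chr4:118437344-118437493, minus strand): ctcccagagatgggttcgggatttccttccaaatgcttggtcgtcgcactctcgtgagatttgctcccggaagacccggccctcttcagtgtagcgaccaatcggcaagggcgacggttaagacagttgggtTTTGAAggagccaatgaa
Mcm2 (chr6:88898781-88898930, minus strand): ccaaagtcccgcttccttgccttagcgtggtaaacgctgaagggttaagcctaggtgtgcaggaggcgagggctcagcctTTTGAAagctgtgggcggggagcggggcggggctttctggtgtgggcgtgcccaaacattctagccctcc
Mcm5 (chr8:75109359-75109508, plus strand): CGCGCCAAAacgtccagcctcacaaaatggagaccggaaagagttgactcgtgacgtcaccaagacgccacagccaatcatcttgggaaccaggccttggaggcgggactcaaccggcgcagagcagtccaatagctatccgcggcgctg
Mcm6 (chr1:128359706-128359855, minus strand): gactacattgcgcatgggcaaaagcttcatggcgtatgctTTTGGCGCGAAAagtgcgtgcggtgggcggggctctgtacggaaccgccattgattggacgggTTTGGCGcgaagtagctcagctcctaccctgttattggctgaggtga
Cdk1 carried both motifs in this stretch, and Mcm2 was among the few S phase genes with the CHR letters. The capital run of Mcm5 opens with the end of a TTTCGCG match that begins before the printed stretch and overlaps a match on the other strand. In Mcm6 an E2F-like match on each strand overlapped in the first capital run.

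The lowest values implied an estimated 31600000 to 43700000 fragments per library, at which a floor of 3 fragments for a 1 kb transcript is 0.069 to 0.095 FPKM, covering counting error only. Keratinocyte genes marked all libraries as skin, with Krt14 of the basal layer between 399 and 4829 FPKM and Krt10 of the upper layers between 406 and 3507 FPKM. Markers of sex differed between genotypes at days 0, 19 and 28. Ddx3y, on the Y chromosome, was listed at 0 in hairloss at days 0 and 28 and lay between 15.8 and 20.4 FPKM in the other 6 libraries. Xist, expressed from an inactive X chromosome, was 51.3 FPKM in wildtype and 76.1 in hairloss at day 0. Its day 19 levels were 12.4 and 0.115 FPKM in the same order, and those of day 28 were 0.166 and 50.2. The wildtype libraries of days 0 and 19 thus held both markers. At these 3 days genotype and sex cannot be told apart.

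Markers of other cell types also moved with genotype at days 16 and 19. Wound-type keratinocyte markers were higher in hairloss for 6 of 6 genes at both days, with sums of 1604 FPKM in wildtype and 14398 in hairloss at day 16, and 636 and 16154 at day 19. Neutrophil markers were higher for 7 of 7 genes at day 16 and 6 of 7 at day 19, with sums of 151 and 3748 FPKM, then 11.6 and 6514. S100a8 and S100a9 made up most of these sums. The receptor genes Cxcr2 and Csf3r were at 0.269 and 0.158 FPKM in wildtype and 7.59 and 7.38 in hairloss at day 16, while Mpo and Elane were at or below 0.24 FPKM in every library and Ly6g was listed at 0 in 4. Macrophage markers were higher for 5 of 5 genes at day 16 (107 and 378 FPKM) and 2 of 5 at day 19 (253 and 247). Basal keratinocyte markers were higher for 5 of 7 genes at both days, with sums of 3072 and 7470 FPKM, then 2803 and 7326, carried by Krt14 and Krt5. Krt15 went the other way, at 421 and 272 FPKM, then 1018 and 212. At day 19 markers of adipocytes (850 and 509 FPKM), endothelium (59.3 and 36.9) and skeletal muscle (3419 and 1690) were lower in hairloss for 3 of 3 genes each, and erythroid markers for 5 of 6 (923 and 257). At day 28 skeletal muscle (1611 and 3611) and mast cell markers (71.1 and 290) were higher, for 3 of 3 and 3 of 4 genes. Keratinocyte markers of the basal layer (1835 and 3654 FPKM) and of the upper layers (2968 and 10487) were also higher, for 7 of 7 genes each. Melanocyte markers were lower at that day for 4 of 4 genes (384 and 117). The part of these cells in the differences between genotypes was not tested. In whole skin, fewer dividing cells and less RNA per dividing cell cannot be told apart.

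The mitotic genes were near their highest levels at days 0 and 28 in both genotypes and at their lowest at day 19, with Kif11 as the exception. Mki67, a marker of cycling cells on chromosome 7 (135689784 to 135716361, mm10), stood at 43.7, 16.1, 6.06 and 47.4 FPKM in wildtype skin at days 0, 16, 19 and 28. In hairloss skin it stood at 43.3, 20.01, 18.5 and 45.9 FPKM. The genotypes were close at days 0 and 28 and farthest apart at day 19. Cdk1, the kinase that starts mitosis (chromosome 10, 69335146 to 69352938), had levels of 49.1, 19.5, 6.91 and 55.0 FPKM in wildtype and 44.0, 29.1, 21.4 and 45.4 in hairloss. Its partner Ccnb1 had levels of 24.0, 8.10, 3.84 and 24.9 FPKM in wildtype and 20.3, 11.8, 9.14 and 19.7 in hairloss. Top2a, which untangles sister chromatids and had the highest mitotic level in each of the 8 libraries, had levels of 55.3, 20.7, 9.89 and 61.4 FPKM in wildtype and 48.0, 31.3, 24.1 and 63.4 in hairloss. In each of these 4 genes the wildtype library of day 19 was the lowest of the 8.

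Spindle kinases and checkpoint genes had lower levels and were again lowest at day 19. Plk1, the Polo kinase, had levels of 7.63, 3.43, 1.20 and 11.6 FPKM in wildtype and 10.5, 6.43, 6.16 and 13.7 in hairloss. Aurka, the Aurora kinase of spindle poles, had levels of 8.53, 3.16, 1.45 and 10.5 FPKM in wildtype and 10.8, 6.19, 5.06 and 11.6 in hairloss. Both were above wildtype in hairloss at all 4 days. Bub1b, of the spindle checkpoint, was also higher at every day, with 10.7, 5.37, 2.90 and 13.7 FPKM in wildtype and 13.8, 8.58, 5.96 and 15.7 in hairloss. Cdc20, which activates the ligase that ends mitosis, had levels of 23.4, 9.11, 4.13 and 27.3 FPKM in wildtype and 22.6, 15.5, 11.7 and 21.1 in hairloss, above wildtype at days 16 and 19 and below it at days 0 and 28. Cenpf, a protein of the outer kinetochore (chromosome 1, 189640606 to 189688086), had levels of 13.2, 3.53, 1.49 and 9.61 FPKM in wildtype and 14.9, 5.13, 4.59 and 13.1 in hairloss. Birc5, survivin, and Aurkb, its partner kinase in the chromosomal passenger complex, were both at their lowest in the wildtype library of day 19. Birc5 had levels of 26.3, 6.93, 3.36 and 27.99 FPKM in wildtype and 28.1, 14.4, 10.96 and 24.0 in hairloss. Aurkb had levels of 17.9, 4.90, 2.12 and 15.9 FPKM in wildtype and 15.9, 7.17, 5.51 and 15.2 in hairloss. Ccna2, the cyclin that serves both S phase and mitosis, had levels of 26.8, 7.22, 4.04 and 28.01 FPKM in wildtype and 24.3, 13.0, 10.3 and 27.5 in hairloss. All 3 genes were near equal at day 0 and higher in hairloss at days 16 and 19. Tpx2, which recruits Aurora A to the spindle, had levels of 13.4, 4.07, 1.68 and 13.6 FPKM in wildtype and 15.4, 7.41, 6.07 and 14.6 in hairloss. Bub1, the other checkpoint kinase of the set, was lower, with 8.04, 2.48, 0.590 and 6.24 FPKM in wildtype and 6.81, 2.75, 2.36 and 7.01 in hairloss. Kif11, the motor that pushes spindle poles apart, stood apart from the other mitotic genes, with 1.94, 0.380, 0.166 and 0.422 FPKM in wildtype and 0.976, 1.28, 0.773 and 0.295 in hairloss. It was the lowest mitotic member in every library and did not return to its day 0 level at day 28 in either genotype. Some single deposited values are doubtful. The fibroblast marker Col3a1 was listed at 0 in wildtype at day 19, against 1706 and 3140 FPKM at days 16 and 28. Col1a1 was likewise listed at 0 in wildtype at days 19 and 28. Whether the low values of Kif11 are of this kind was not tested.

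Among S phase genes the days differed less. Mcm2 (chromosome 6, 88883474 to 88898780) had levels of 14.1, 5.10, 4.47 and 14.2 FPKM in wildtype and 11.4, 12.8, 8.85 and 18.6 in hairloss. Mcm5 (chromosome 8, 75109569 to 75128439) had levels of 18.0, 7.07, 5.85 and 20.8 FPKM in wildtype and 13.7, 17.0, 12.6 and 27.6 in hairloss. In these 2 helicase subunits hairloss was below wildtype at day 0 and above it at the other 3 days, and the hairloss level at day 16 was above its own level at day 0. Pcna, the polymerase clamp, had the highest S phase level in every library, with 49.9, 33.9, 36.2 and 71.9 FPKM in wildtype and 41.0, 56.4, 43.1 and 70.03 in hairloss. Uhrf1, which carries DNA methylation over to new strands (chromosome 17, 56303321 to 56323486), had levels of 25.7, 8.23, 4.21 and 31.7 FPKM in wildtype and 20.4, 18.3, 11.6 and 34.0 in hairloss. Its wildtype library of day 19 was the lowest of the 8. Genes of nucleotide supply were lowest at day 19 in wildtype. Rrm2, the subunit of ribonucleotide reductase made in S phase, had levels of 18.9, 13.1, 9.29 and 28.1 FPKM in wildtype and 12.3, 15.5, 15.04 and 22.6 in hairloss. Tyms, which makes thymidylate, had levels of 13.0, 7.69, 5.62 and 18.4 FPKM in wildtype and 11.9, 14.9, 8.03 and 21.2 in hairloss. In both genes the order of genotypes was wildtype first at day 0 and hairloss first at days 16 and 19. Licensing and entry genes had low levels. Cdc6 had levels of 2.40, 1.31, 0.881 and 3.88 FPKM in wildtype and 1.99, 1.85, 1.60 and 3.64 in hairloss. Cdt1 had levels of 7.65, 2.88, 4.04 and 6.88 FPKM in wildtype and 6.56, 4.91, 4.32 and 6.83 in hairloss, and in wildtype it was lowest at day 16. Ccne1, the cyclin that brings cells into S phase, had levels of 3.65, 1.74, 0.763 and 4.17 FPKM in wildtype and 2.73, 2.23, 2.10 and 3.06 in hairloss. E2f1, the transcription factor, had levels of 3.70, 1.53, 2.20 and 2.59 FPKM in wildtype and 3.90, 2.98, 2.21 and 4.20 in hairloss, with equal levels at day 19.

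**Figure D1:**
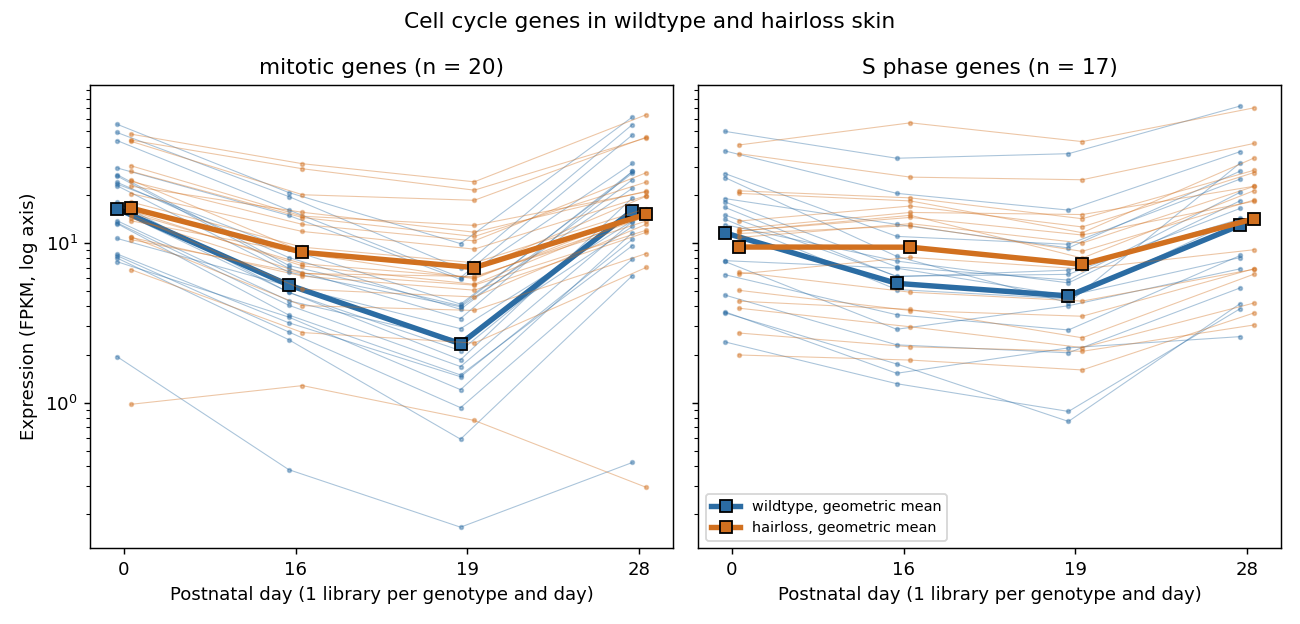
Expression (FPKM, log axis) of the 20 mitotic genes (left) and 17 S phase genes (right) by postnatal day, drawn at even spacing along days 0, 16, 19 and 28, with thin lines for genes and squares for the geometric mean of each library. The mitotic mean of wildtype reaches 2.34 FPKM at day 19, where hairloss stands at 7.002, and the genotypes meet at days 0 and 28.

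Over the 20 mitotic genes the geometric mean was 16.4, 5.45, 2.34 and 15.9 FPKM in wildtype and 16.5, 8.72, 7.002 and 15.1 in hairloss. The wildtype mean was 3.01-fold lower at day 16 than at day 0, 2.33-fold lower again at day 19 and 6.79-fold higher at day 28 than at day 19. In hairloss the same steps were 1.89-fold lower, 1.25-fold lower and 2.15-fold higher. Over the 17 S phase genes the geometric mean was 11.6, 5.58, 4.66 and 12.9 FPKM in wildtype and 9.42, 9.39, 7.33 and 14.1 in hairloss. The ratio of mitotic to S phase level in wildtype was 1.42, 0.977, 0.502 and 1.23, and in hairloss 1.76, 0.929, 0.955 and 1.07. The wildtype library of day 19 held the lowest ratio of the 8.

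The wildtype low at day 19 covered 20 of 20 mitotic genes and 12 of 17 S phase genes, beside 26.3% of all 18724 genes tested, and the other 5 S phase genes were lowest at day 16. In hairloss 19 of 20 and 14 of 17 were lowest at day 19, beside 17.9% of all genes. The wildtype high was at day 28 for 13 of 20 and 12 of 17, beside 19.2% of all genes, and at day 0 for the rest. In hairloss 17 of 17 S phase genes but 8 of 20 mitotic genes were highest at day 28, beside 18.5% of all genes.

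Day steps were tested with limma on log2(FPKM + 1), with the genotypes as the repeats of each step (3 residual degrees of freedom) and Benjamini-Hochberg adjustment over all 18724 genes. From day 0 to 16, 2 of 37 members fell, both mitotic, beside 4.42% of all genes that fell. At an unadjusted p under 0.05 there were 16 of 20 mitotic and 3 of 17 S phase genes, beside 33.4% of all genes. Kif23, a motor of the midzone that divides the cytoplasm (chromosome 9, 61915905 to 61946774), had levels of 22.8, 6.55, 3.98 and 22.0 FPKM in wildtype and 24.8, 8.84, 6.81 and 19.6 in hairloss. It fell by 1.52 ± 0.22 (SE) on the log2 scale from day 0 to 16 (adjusted p = 0.0348). Cenpf fell by 1.51 ± 0.27 (adjusted p = 0.0404). With no filter on low values neither passed, at adjusted p = 0.0570 and 0.0645, and without day 28 Cenpf had an adjusted p of 0.0592. Without day 19 the number of members called was 8, all lower, beside 841 of all 18724 genes called lower. Nusap1, a spindle protein, just missed the threshold at -1.25 ± 0.27 (adjusted p = 0.0520). The median step was -1.21 for mitotic genes, -0.48 for S phase genes and -0.05 for all genes. Scaling the libraries to equal totals without keratins moved the median of all genes to -0.23, raised the members called to 9, and changed the split of all genes from 670 higher and 827 lower to 588 and 1720.

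From day 16 to 19 no member passed, beside 0.0160% of all genes in either direction, and the medians were -0.60 for mitotic and -0.25 for S phase genes. At an unadjusted p under 0.05 there was 1 member, Bub1b, beside 5.21% of all genes, at -0.58 ± 0.20 (limma, adjusted p = 0.673). From day 19 to 28 no member and no gene passed (0.00%). Yet 33 of 37 members had an unadjusted p under 0.05, beside 10.2% of all genes. The spread in these step tests holds any true difference between genotypes in the step. Here the mitotic mean rose 6.79-fold in wildtype and 2.15-fold in hairloss. The medians of this step were 1.75 for mitotic and 1.04 for S phase genes. Kif23 had 1.80 ± 0.22 and Uhrf1 had 2.06 ± 0.42, with adjusted p = 0.357 and 0.360 in limma. Kif11 was the member whose joint estimate did not share the direction, at -0.08 ± 0.37. It was higher at day 28 in wildtype (0.166 to 0.422 FPKM) and lower in hairloss (0.773 to 0.295).

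**Figure D2:**
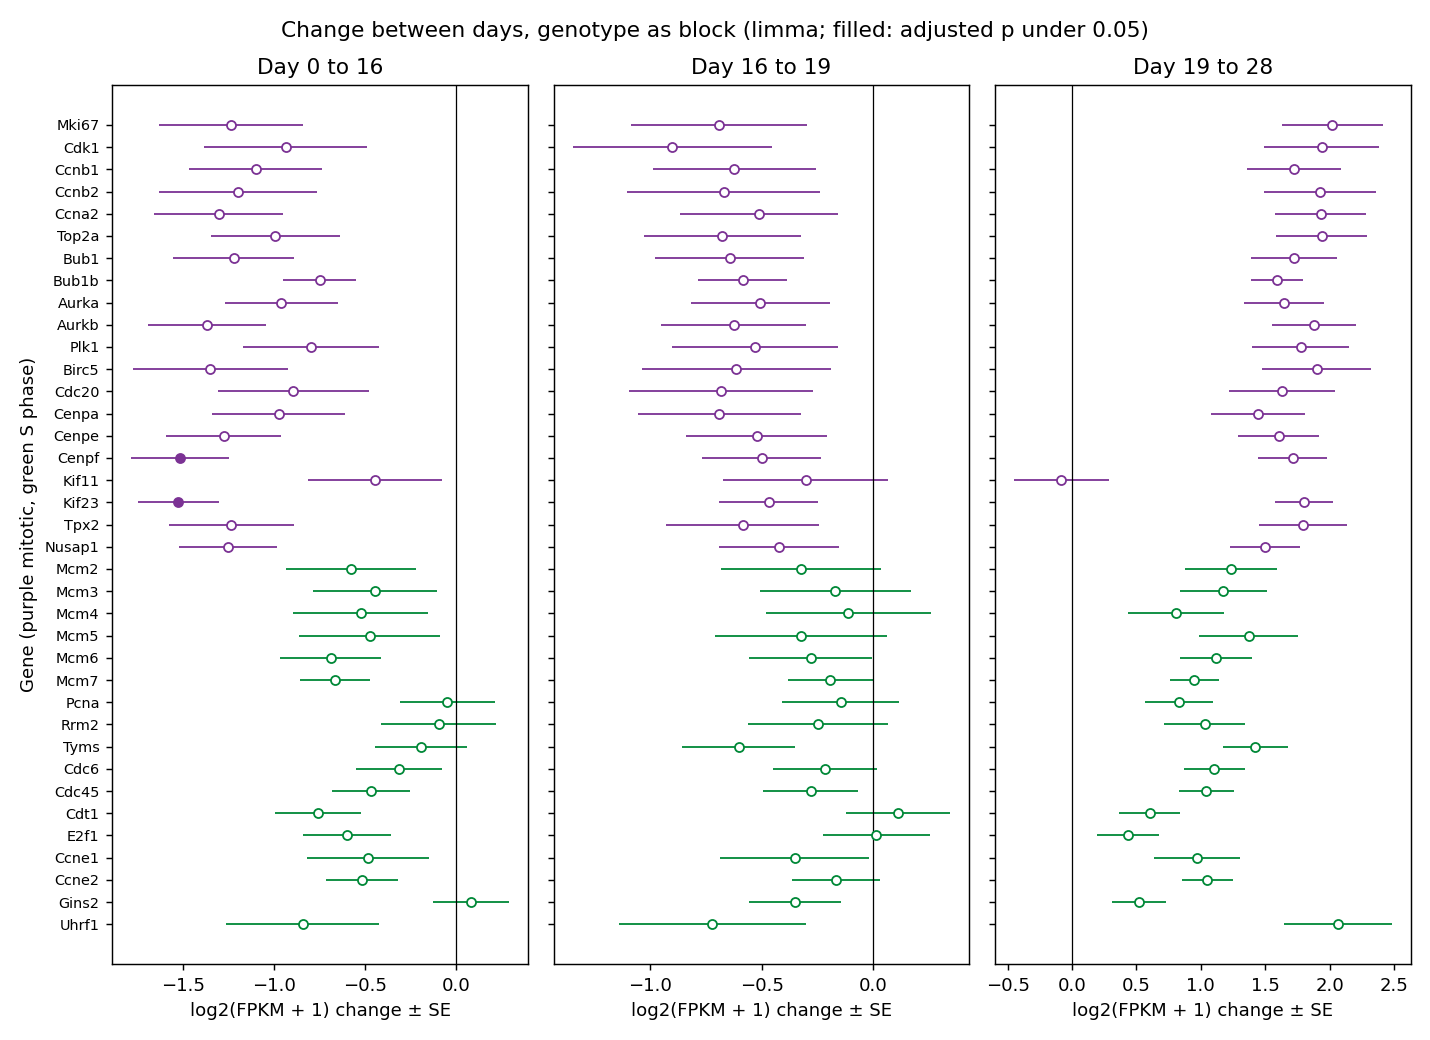
Change of each member between neighbouring days on log2(FPKM + 1), as the limma estimate with its SE, with genotype as a block, purple for mitotic and green for S phase genes. Only Kif23 and Cenpf, at the first step, are filled as passing the adjusted threshold, and the last step is positive for every member but Kif11.

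At day 0 the genotypes held nearly equal levels of mitotic genes and slightly lower levels of S phase genes in hairloss. Members past the size rule, at least 2-fold on log2(FPKM + 1) with at least 1 FPKM in either library, numbered 0 higher and 0 lower, beside 1.49% and 1.58% of all genes. The median log2 difference, hairloss minus wildtype, was 0.05 over mitotic genes and -0.28 over S phase genes, beside -0.01 over all genes. All S phase members but E2f1 were lower in hairloss, 16 of 17, while 48.0% of all genes were higher. The 6 MCM subunits had a median linear ratio of hairloss to wildtype of 0.769, from 0.710 to 0.961.

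At day 16 hairloss skin had higher levels of nearly all members. The rule was met by 4 genes, Mcm2, Mcm4, Mcm5 and Uhrf1, all of S phase, beside 5.34% of all genes higher and 7.39% lower, and by no member in the lower direction. Mcm4, of the helicase, stood at 6.14 FPKM in wildtype and 14.4 in hairloss. The log2 differences of the 4 genes were 1.18, 1.11, 1.16 and 1.06. The median was 0.57 over mitotic genes and 0.66 over S phase genes, beside -0.08 over all genes. Of the mitotic genes 19 of 20 were higher, all but Cenpa, the histone variant of centromeres, at 14.8 and 14.7 FPKM. Of the S phase genes 17 of 17 were higher, while 43.4% of all genes were. The MCM subunits had the largest median ratio, 2.24 (1.26 to 2.51), against 1.67 for the other 11 S phase genes and 1.55 for the 6 mitotic kinases and checkpoint kinases. The number past the rule depended on the pseudocount, with 7 at 0.1 and 0 at 5. Beside these stood 1242 and 371 of all 16186 genes higher. At 5 the medians were 0.37 over mitotic and 0.33 over S phase genes, so their order at this day was not stable.

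At day 19 the median difference was larger in mitotic than in S phase genes. The rule was met by 17 members, 16 of them mitotic together with Uhrf1, beside 6.53% of all genes higher and 5.76% lower, and by none in the lower direction. Of mitotic genes, Bub1b, Kif11, Kif23 and Nusap1 stayed under 2-fold on this scale. The largest linear ratio was that of Plk1, with 6.16 FPKM in hairloss against 1.20 in wildtype, 5.11-fold. Ccnb2, a cyclin B, stood at 7.50 against 1.85 FPKM (4.05-fold), and Cenpe, the kinetochore motor, at 3.78 against 0.930 FPKM (4.06-fold). Mki67 was 3.05-fold higher and Cdk1 3.09-fold higher. The median log2 difference was 1.19 over mitotic genes and 0.49 over S phase genes, beside -0.00 over all genes, and 37 of 37 members were higher, while 49.9% of all genes were. With a pseudocount of 5 the count past the rule was 2 of 37, beside 533 of all 16656 genes higher. When libraries were scaled without keratins, Ccnb1, Aurkb and Cenpa stood under the rule, at 0.98, 0.99 and 0.91 on the log2 scale. That scaling changed the split of all genes from 1088 higher and 960 lower to 988 and 1148.

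At day 28 the members were again close between genotypes. None met the rule in either direction, beside 5.60% of all genes higher and 6.42% lower. The median log2 difference was -0.06 over mitotic genes, with 8 higher and 12 lower, and 0.17 over S phase genes, with 11 higher and 6 lower. Scaling without keratins turned the mitotic median to 0.06, while moving that of all genes to 0.11 and the split of all genes past the rule from 897 higher and 1029 lower to 1087 and 898. The extremes were E2f1 at 1.62-fold and Cenpa at 0.664-fold of wildtype, with 20.8 FPKM in hairloss against 31.4. All 6 MCM subunits were higher in hairloss, by a median of 1.30-fold (1.13 to 1.37).

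**Figure D3:**
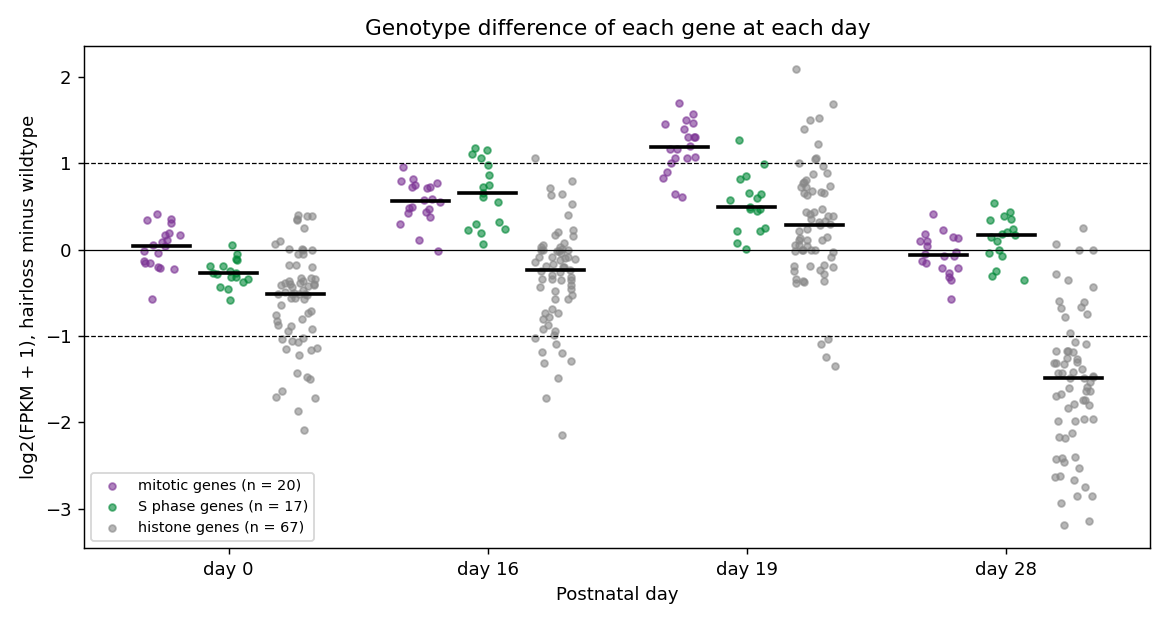
Difference of each gene between hairloss and wildtype on log2(FPKM + 1) by day, for mitotic genes (purple), S phase genes (green) and histone genes (grey), with bars at the medians and dashed lines at 2-fold. The mitotic median is 1.19 at day 19 and near 0 at days 0 and 28, while the histone median is -1.49 at day 28.

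Over the 4 days together no member passed the limma test of genotype with day as a block, beside 0.0374% of all genes. The estimate was positive for 35 of 37 members. At an unadjusted p under 0.05 there were 4 members, Bub1b, Aurka, Plk1 and Cenpf, beside 13.4% of all genes. This number was 11, of which 7 were of S phase, without day 0, 0 without day 16, 3 without day 19 and 7 without day 28. The shares of all genes in the same order were 12.2%, 5.67%, 11.9% and 9.35%. Bub1b had 0.49 ± 0.14 (adjusted p = 0.332) and Plk1 had 0.77 ± 0.26 (adjusted p = 0.349). The spread in this test holds any true change of the difference from day to day. A term for day 19 alone, against the other 3 days, was also fitted, its day chosen with earlier results of these data known. Its counts are therefore no independent support for a difference at that day. It called no member either, beside 0.139% of all genes, with 12 mitotic and 0 S phase members at an unadjusted p under 0.05, beside 8.80% of all genes. Members under that p numbered 3 without day 0, 20 without day 16 and 4 without day 28, beside 8.71%, 8.76% and 5.73% of all genes. Mki67 had the estimate 1.38 ± 0.25 in that limma test (adjusted p = 0.563).

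Shaft keratins and mitotic genes moved in the same direction at some steps and in opposite directions at others. The summed level of 15 hair shaft keratins, the structural proteins made by the daughters of matrix cells, was 36.3, 4827, 36.5 and 4412 FPKM in wildtype and 26.7, 1064, 414 and 20.2 in hairloss. From day 0 to 16 the shaft sum was higher and the mitotic mean lower in both genotypes, and from day 16 to 19 both measures were lower in both genotypes. From day 19 to 28 both were higher in wildtype, whereas in hairloss the mitotic mean was higher and the shaft sum lower. At day 0 both genotypes combined high mitotic levels with little shaft keratin. At day 16 hairloss held 1.60-fold more mitotic expression and 4.54-fold less shaft keratin than wildtype. At day 19 it held 2.997-fold more mitotic expression and 11.3-fold more shaft keratin. At day 28 the mitotic level was 0.951 of wildtype while the shaft keratins were 218-fold lower. Krt31, a shaft keratin, stood there at 343 FPKM in wildtype and 0.0273 in hairloss, below the floor of 3 fragments in 1 kb.

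Per FPKM of mitotic expression, shaft keratins came to 2.22, 886, 15.6 and 278 FPKM in wildtype and to 1.61, 122, 59.1 and 1.34 in hairloss. The hairloss library of day 28 lay near both libraries of day 0 in mitotic level and in the sum of shaft keratins, but not in single shaft keratins. Krt31 was at 1.74 FPKM in wildtype and 0.426 in hairloss at day 0, against 0.0273 in that library. Among 3 genes named after their values were seen, Krt35 made up 12.7 FPKM of its sum. Krt84 and Krt32, at 2.65 and 3.69 FPKM, were above both day 0 libraries. Markers of the hair matrix and early shaft summed to 84.6, 3037, 33.4 and 2665 FPKM in wildtype and 72.8, 760, 317 and 46.8 in hairloss, and the shaft product S100a3 made up 1767 FPKM of the wildtype sum at day 28. All 11 genes of this list were lower in hairloss at day 28, by unequal amounts. Among 3 genes chosen after their values were seen, the signal Shh was at 3.61 FPKM in wildtype and 3.27 in hairloss, and the regulators Lef1 and Hoxc13 were at 30.1 and 5.50 and at 32.7 and 4.13. The keratin-associated proteins, which crosslink shaft keratins, summed over 57 genes to 22.4, 33165, 301 and 24994 FPKM in wildtype and to 12.6, 6345, 2438 and 4.11 in hairloss. With 1 library a group these ratios carry no test.

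**Figure D4:**
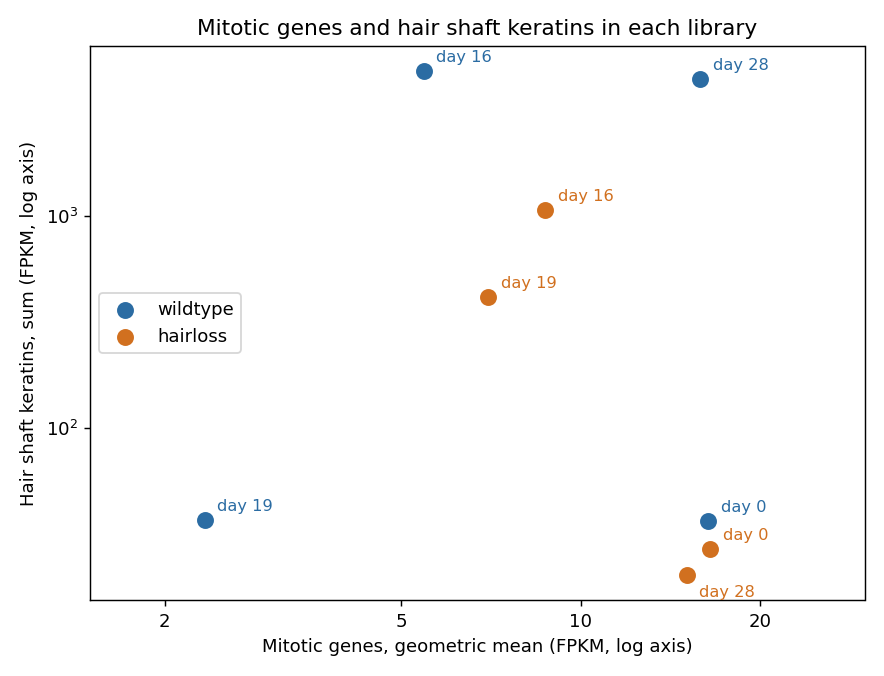
Summed hair shaft keratins against the geometric mean of mitotic genes in each of the 8 libraries, both in FPKM on log axes, blue for wildtype and orange for hairloss. At day 28 the genotypes share nearly the same mitotic level, 15.9 and 15.1 FPKM, at 4412 and 20.2 FPKM of shaft keratin.

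Other genes of the pathway were taken from lists made by function. Of 67 other mitotic genes, 28 were past 2-fold higher in hairloss at day 19, beside 6.53% of all genes, and none at days 0, 16 or 28, and none was lower at any day. Their medians were 0.02, 0.45, 0.88 and -0.01. Cdca3, a trigger of mitotic entry, had the largest difference, 9.86 against 2.84 FPKM, followed by Kif20a, a motor of cytokinesis, at 5.64 against 1.54. From day 0 to 16, 17 of 66 tested fell in limma, beside 4.42% of all genes. Of 57 other replication genes, 1 was past 2-fold higher at day 16, beside 5.34% of all genes. It was the ligase Lig1, at 9.28 against 3.84 FPKM. At day 19 Hells, a chromatin remodeller, had the largest difference of this list, 6.95 against 2.47 FPKM. Of 56 tested, 6 fell from day 0 to 16 in the same test, beside 4.42% of all genes.

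Among genes that govern entry into and exit from the cycle, none of 10 G1 cyclins and kinases and none of 18 cell cycle brakes was past 2-fold at any day. The shares of all genes ranged over the days from 1.49% to 6.53% higher and from 1.58% to 7.39% lower. Ccnd1, the cyclin of G1, had levels of 49.5, 15.4, 15.3 and 53.2 FPKM in wildtype and 46.5, 24.1, 16.01 and 34.8 in hairloss. Cdkn1a, the p21 inhibitor, had levels of 40.1, 126, 47.4 and 68.7 FPKM in wildtype and 45.4, 88.5, 82.0 and 51.5 in hairloss, so the order of genotypes changed between days. Cdkn1b, the p27 inhibitor, was lower in hairloss at days 16, 19 and 28, at 30.2, 26.6 and 24.9 FPKM against 44.3, 38.4 and 33.2. From day 0 to 16 limma called Cdk2, Cdc25a and Ccnd3 lower, Btg2 and Cdkn2b higher and Cdkn1c lower. Cdkn1c, the p57 inhibitor, had the widest range, with 134, 10.8, 11.6 and 15.0 FPKM in wildtype and 168, 10.96, 12.7 and 8.40 in hairloss.

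The replication-dependent histones, which are made in S phase to package new DNA, departed from the members in the difference between genotypes. Their 67 coding genes summed to 9978, 5903, 3282 and 16055 FPKM in wildtype and to 6674, 4372, 3550 and 5681 in hairloss. In both genotypes the sum was lowest at day 19, as were most members. At day 28, where no S phase member was past 2-fold, 53 of 67 histone genes were past 2-fold lower in hairloss, beside 6.42% of all genes, and none higher, with a median log2 difference of -1.49. Hist1h2ao stood at 69.5 FPKM in wildtype and 6.70 in hairloss, and Hist1h2ab at 105 and 12.9. At days 0, 16 and 19 those lower numbered 16, 9 and 4, beside 1.58%, 7.39% and 5.76% of all genes. Those higher numbered 0, 1 and 9, beside 1.49%, 5.34% and 6.53%. A linker histone chosen after its values were seen, Hist1h1b, went with the mitotic genes, with 271, 93.8, 33.4 and 318 FPKM in wildtype and 358, 197, 146 and 333 in hairloss. In limma over the 4 days none of 63 tested histone genes passed (lowest adjusted p = 0.295), with 20 at an unadjusted p under 0.05, beside 13.4% of all genes. These genes are near-identical copies, so values of single genes are uncertain, and their messages lack a poly(A) tail, so they depend on how RNA was selected, which was not given in the sources used here. Of 128 other short coding genes, 38 (29.7%) were past 2-fold lower at day 28 and 31 higher, with a median of -0.24. Of 113 snoRNA genes, whose RNAs also lack a poly(A) tail, 22 were lower and 50 higher, with a median of 0.65. The part of transcript length and RNA selection in the histone result was not tested.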

How the data were processed

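Total RNA of mouse skin, isolated on RNeasy columns and made into TruSeq libraries per the labels' protocols, was sequenced in 8 libraries. Cutadapt, Cuffdiff and build mm10 are named per the submitters' processing notes. For the aligner and annotation release nothing is stated in these sources. The authors deposited 1 value per Ensembl gene without a unit, read here as FPKM because Cuffdiff is named and the values are not whole. Counts were not used here, and depth was estimated from the spacing of low values in genes with 1 transcript of over 1000 bases. The files themselves named 21795 genes, and GENCODE M21 named 33387 more.

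Members were matched by symbol. They and all 23 other lists were chosen with earlier results of these data known, as was day 19 for its separate term. Values were analysed as log2(FPKM + 1), computed from the deposited FPKM, which understates folds of low genes. At each day a size rule of 2-fold with at least 1 FPKM in either library was used. Across days R 4.3.3 with limma 3.58.1 (two-sided, moderated with eBayes trend and robust options, threshold 0.05) was run in 5 tests on 18724 genes of at least 1 FPKM. The labels do not say whether libraries of different days came from separate animals, although the sex markers differed between some days. The p-values measure only the spread between these libraries. The tests were tried on simulated data. Python 3.11.15 with numpy 2.4.6 and pandas 2.3.3 did the rest. All members could be named with their values. Of other lists up to 4 genes with the largest difference were named, and those called if 5 or fewer. Part of the result for other replication genes at day 19 is not reported here. Alternatives were other pseudocounts, scalings, filters and fits, and leaving out a day.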

Additional observations from a re-analysis of the deposited data

Results flagged for a closer look

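The level of hair shaft keratins per level of mitotic genes differed between the genotypes in opposite directions on different days. On the log2 scale, hairloss against wildtype, it was -2.86 at day 16, 1.92 at day 19 and -7.70 at day 28. With 1 library per genotype and day the difference between days was not tested.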

How the results depend on the processing

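The mitotic median of day 28, -0.06, was 0.06 after scaling that left out keratins. The order of the mitotic and S phase medians of day 16 changed with a pseudocount of 5, to 0.37 and 0.33. Scaling without keratins also turned which direction held more of all genes past 2-fold, at day 19 (988 higher and 1148 lower) and day 28 (1087 and 898). Other values that moved are given by setting. With a pseudocount of 0.1, members past 2-fold higher at day 16 numbered 7 in place of 4, beside 1242 of all 16186 genes. The mitotic median at day 19 was then 1.58 in place of 1.19. With a pseudocount of 5 the members past 2-fold higher at day 16 numbered 0, beside 371 of all 16186 genes. Those at day 19 numbered 2 in place of 17, beside 533 of 16656 genes, and the mitotic median at day 19 was 0.70. Shaft output per mitotic level, taken from keratin-associated proteins, had log2 differences of -0.85 at day 0, 1.44 at day 19 and -12.5 at day 28, and with the median of members 2.23 at day 19. Members called from day 0 to 16, 2 in the reported fit, numbered 6 with a pseudocount of 5, 9 when scaled without keratins and 0 with no filter. They numbered 8 without day 19 and 1 without day 28. Genes called over all genes ranged from 456 to 2308 for that step (1497 as reported), from 0 to 8 for genotype (7), from 0 to 6 from day 16 to 19 (3), from 0 to 5 from day 19 to 28 (0), and from 0 to 33 for the day 19 term (26). The reported genotype fit has day as its block, so libraries are paired by day and not by animal. The fit with no replicate block (no day term) called 0 members and 8 genes for genotype. The causes of these shifts were not tested. The pseudocount of 1 compresses differences of members near 1 FPKM, such as Kif11. The lowest Kif11 value, 0.166 FPKM in wildtype at day 19, lay above the floor of 3 fragments in 1 kb.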
